A study of Mus musculus with 2 samples.

Results

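Blood endothelial cells, the cells that line the blood vessels, were picked out of the single-cell RNA sequencing data of amputated digit tissue by their marker transcripts. Members were chosen by their UMIs (unique molecular identifiers, 1 per captured transcript) of 11 marker genes. A barcode was taken when at least 4 of 8 endothelial genes (Pecam1, Cdh5, Kdr, Emcn, Cldn5, Egfl7, Tie1 and Flt1) had a transcript in it. It also had to hold no transcript of Prox1 or Mmrn1, which mark lymphatic vessels, and none of Pdgfra, which marks connective tissue cells. This gave 113 of 6715 barcodes past the cell filter in the FGF8 library and 58 of 3252 in the BSA library, 171 of 9967 in all. The cell filter asked for over 200 but under 7500 genes per barcode and for a mitochondrial share of UMIs under 15%.

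The samples came from hindlimb digits of neonate ICR mice, an outbred strain, amputated through the middle phalanx (P2) at postnatal day 3. At postnatal day 7 each wound received a bead with FGF8 (500 ng/µl), a fibroblast growth factor, or with 0.1% bovine serum albumin (BSA), the control, and the cells were taken 24 h later, at postnatal day 8. Each library pooled 20 digits of 5 mice of both sexes, after the epithelium had been removed, and the labels name no genetic change in either group. The question was what the vessel cells near an FGF8 bead transcribed, beside those near a BSA bead. With 1 library per condition, animals, dissection, capture and treatment cannot be told apart, and no test across samples was possible. Every interval printed below covers counting error only.

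Endothelial cells hold the vessel wall together through junction proteins and take different forms in arteries, capillaries and veins. At the front of a growing vessel, tip cells answer to VEGF through its receptor Kdr, and Notch signalling holds their neighbours back. In inflamed tissue the cells of small veins put selectins and Icam1 on their surface, which catch leukocytes from the blood. Capillary cells of fat, muscle and skin carry proteins that take up fatty acids. FGF ligands bind receptor tyrosine kinases, and the MAP kinase pathway below them switches on Ets factors and its own inhibitors, the Sprouty proteins and dual-specificity phosphatases.

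The members made up 1.68% of the filtered FGF8 barcodes (95% exact binomial interval 1.39 to 2.02) and 1.78% of the BSA barcodes (1.36 to 2.30), so their share was alike within counting error. FGF8 members held 1529700 of the 124889213 UMIs of their library, and BSA members 777863 of 67739460. The median FGF8 member had 9472 UMIs over 3387 genes, and the median BSA member 9109.5 over 3161. Of the 8 rule genes, 47 FGF8 members and 22 BSA members had all, and 11 and 6 had 4, the least the rule allows. Just outside it stood 20 FGF8 and 9 BSA barcodes with 3 of the 8 genes. Another 11 and 8 barcodes were left out for Pdgfra. For Prox1 or Mmrn1, 22 FGF8 barcodes were left out, 0.328% of the library (0.205 to 0.496), against 56 BSA barcodes, 1.72% (1.30 to 2.23). No barcode sequence shared by the libraries, of which there were 6, was a member in either.

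The rule genes are described here without any test, since they chose the cells. Pecam1, a junctional adhesion protein, was the most abundant, at 1350 counts per 1000000 UMIs of the members (CPM) for FGF8 and 1228 for BSA. Summed, the 8 genes stood at 5520 and 5200 CPM in the members, and at 32.1 and 36.8 CPM in C1q-positive cells. The latter carried macrophage genes and served as a comparison for free RNA. A share found in them can also come from their own transcripts. Cd36, for example, was in 32.5% of FGF8 and 37.0% of BSA C1q-positive cells thinned to 2000 UMIs. How much of any such share was free RNA was not tested. The label was also checked on 30 other endothelial genes that the rule had not used. They summed to 9335 and 9650 CPM in the members against 349 and 325 CPM in C1q-positive cells, with a median of 24 and 23.5 of the 30 detected per cell. Plvap, which forms the diaphragms of endothelial pores, led this list at 1084 and 1153 CPM.

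Some barcodes also carried transcripts of another cell type. The line was at least 10 UMIs of the markers of 1 other lineage, or at least 5% globin UMIs. Col1a1, Col1a2, Col3a1, Postn and Kit were not counted. Lymphatic markers were not used, and erythroid markers only through the globin share. This line was passed by 10 FGF8 and 8 BSA members, called mixed-marker members below. This rule was set after their values had been seen. Their median depth was 21802.5 and 23170.5 UMIs, against 8701 and 7685 in the rest, and whether they were droplets with more than 1 cell was not tested. Fibroblast collagens stayed in the rest. In its BSA part, 1 cell held 11.6% of 172 Col1a1 UMIs, and 1 cell held 15.5% of 155 Col3a1 UMIs. Xist and a Y-linked transcript met in 4 FGF8 and 2 BSA members. Of the members with a sex call from Xist or Y-linked transcripts, 27 were female and 60 male in the FGF8 library, and 33 and 12 in the BSA library. The share of female cells was thus 31.0% (21.5 to 41.9) and 73.3% (58.1 to 85.4). Treatment and the sex of the pooled cells moved together, so results are also given within each sex and without the mixed-marker members.

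Across the 10992 genes with at least 10 UMIs in the members of both libraries together, the log2 ratio of CPM, FGF8 over BSA, had a median of -0.00075 and was above 0 in 50%. It was above 1 in 660 of them (6%) and below -1 in 3.88%. These shares are the background for the counts below, and a gene with no UMI in 1 library entered at a floor of 3 counts. The general endothelial genes lay closely around the background. Of the 30, 14 had a ratio above 0, none passed 1 or -1, and the median was -0.04. Junction genes, at a median of 0.03 over 15 genes, were as even. Cdh13, an adhesion protein of vessels and their most abundant member, stood at 1528 CPM for FGF8 and 1593 for BSA.

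**Figure D1:**
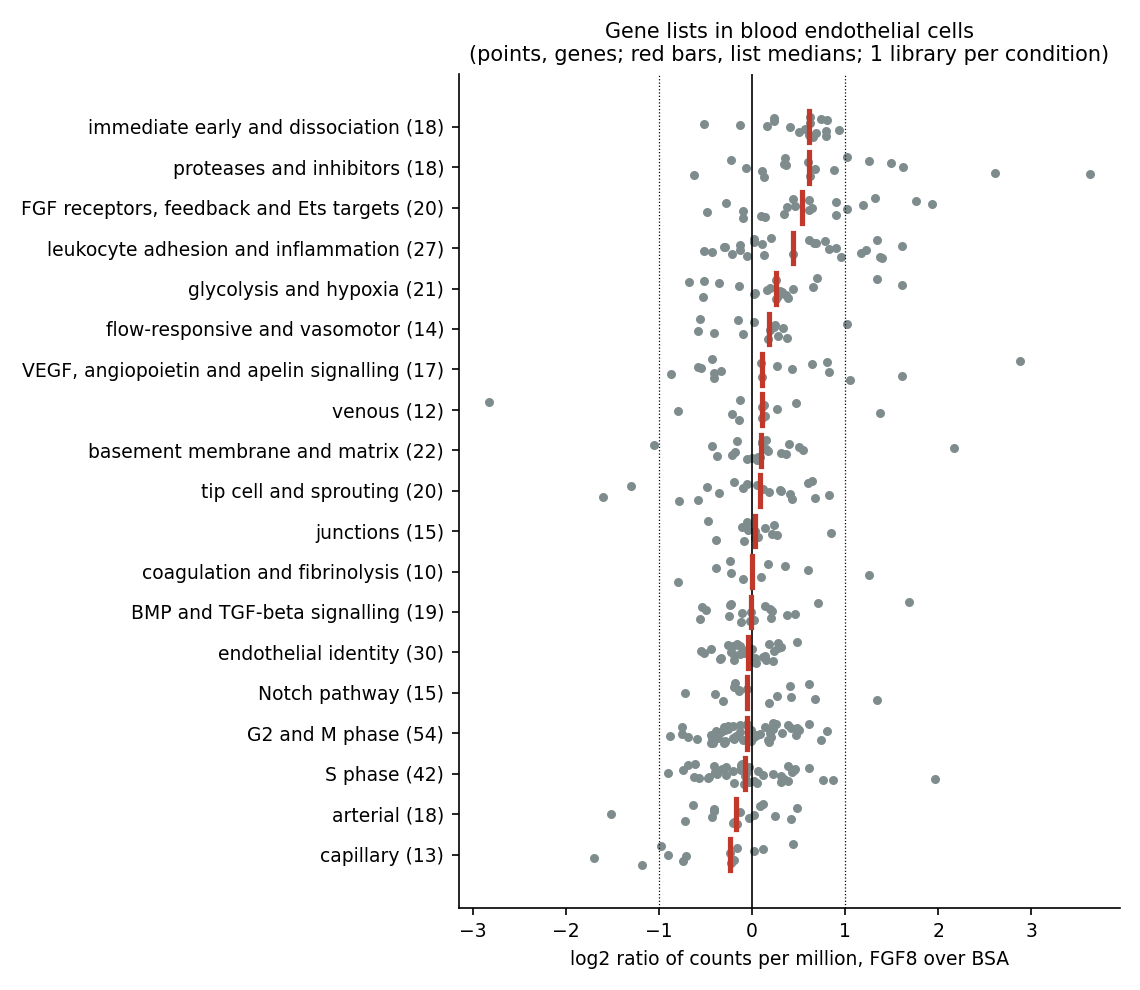
Each point is a gene of a list, placed on the x axis by its log2 ratio of CPM in blood endothelial cells, FGF8 over BSA, with the number of genes in brackets and a red bar at the list median. The median lies lowest for the capillary list (-0.24) and highest for the immediate early list (0.61), while endothelial identity genes stay between the dotted lines at -1 and 1.

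Several genes of capillary cells were lower in the FGF8 library, though the capillary genes as a list had a median log2 ratio of only -0.24. Fabp4, which carries fatty acids inside capillary cells, stood at 1161 CPM in the FGF8 library and 3768 CPM in the BSA library, 3.25-fold lower in the FGF8 library (log2 ratio -1.70, interval -1.78 to -1.61). The BSA level was the higher in both sexes, with log2 ratios of -1.64 (female-called) and -2.41 (male-called), and stayed so without the mixed-marker members (-1.60). In 1 BSA member lay 26.4% of that library's Fabp4 UMIs. Leaving out the member with the most Fabp4 in each library gave -1.40. Fabp4 was found in 39.8% of FGF8 and 54.9% of BSA members after every cell had been thinned to 2000 UMIs, and in 2.07% and 2.08% of C1q-positive cells, whose median depth before thinning was 11353.5 and 13002 UMIs. Unthinned, 57.5% and 60.3% of members held it. It was thus lower in level by more than in the share of cells that held it.

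Cd36, a fatty-acid transporter of the cell surface, was at 202 CPM in the FGF8 library and 460 CPM in the BSA library (log2 ratio -1.19, -1.41 to -0.96), and its ratio was lower among female-called (-2.03) than male-called members (-0.82). Gpihbp1, which holds lipoprotein lipase on the capillary wall, was at 621 and 1043 CPM (-0.75, -0.88 to -0.61). Rbp7, a retinoid-binding protein found in endothelium, was at 229 and 789 CPM (-1.79, -1.98 to -1.59). All these genes were lower in both sexes. Pparg, the nuclear receptor of the fatty-acid programme, was sparse but had the same order, with 33 UMIs in 21 FGF8 members and 51 UMIs in 23 BSA members (-1.60, -2.28 to -0.94). Rbp7 and Pparg are not in the capillary list. They were taken for their values, from the 12 lowest of all genes, and add nothing to the count for that list. In Pdgfra-positive cells the ratios were 0.06 for Fabp4, 1.67 for Rbp7, 0.71 for Cd36 and -0.51 for Pparg.

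Of the 16 capillary genes, 13 reached 10 UMIs and 3 of these were above 0 (23.1%, against 50% of all genes), 2 were below -1 and the median was -0.24. After Fabp4 and Gpihbp1, the most abundant were Aqp1, the water channel, and Rgcc, a cell cycle regulator, at log2 ratios of -0.20 and -0.22. Fabp5, another fatty-acid carrier, had -0.71 (-0.28 without the mixed-marker members), and Btnl9, a butyrophilin of capillaries, had -0.91, but 0.33 in female-called members. Sgk1, a kinase induced by steroids and stress, was the highest, at 0.44. The summed level of the list was 3980 CPM for FGF8 and 7683 for BSA, most of it Fabp4. In male-called members 1 of 11 measured genes was above 0, and in female-called members 3 of 11. Thinned to 5000 UMIs, the median was 0.03, over 11 genes.

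The share of members in which capillary genes were found is not a share of capillary cells, because 3 of the 5 genes used are those just described as lower. At least 2 of 5 capillary genes (Cd36, Rgcc, Gpihbp1, Fabp4, Cd300lg) were found in 63.1% of 103 FGF8 members (53.0 to 72.4) and 68.6% of 51 BSA members (54.1 to 80.9) thinned to 2000 UMIs. The interval of the difference, -20.2 to 10.7 percentage points, includes 0. C1q-positive cells passed the same line in 3.95% and 5.19%. Unthinned, the members stood at 79.6% and 75.9%. At least 3 of the 5 genes were found in 28.2% of thinned FGF8 members (19.7 to 37.9) and 47.1% of thinned BSA members (32.9 to 61.5), and in 66.4% and 67.2% unthinned. The difference at 2000 UMIs was -18.9 percentage points (-34.4 to -2.89), an interval of counting error alone that does not reach 0. Thinned to 5000 UMIs, the order was reversed, at 65.5% of FGF8 members (54.3 to 75.5) and 60.5% of BSA members (43.4 to 76.0). No direction is therefore given for this share.

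**Figure D2:**
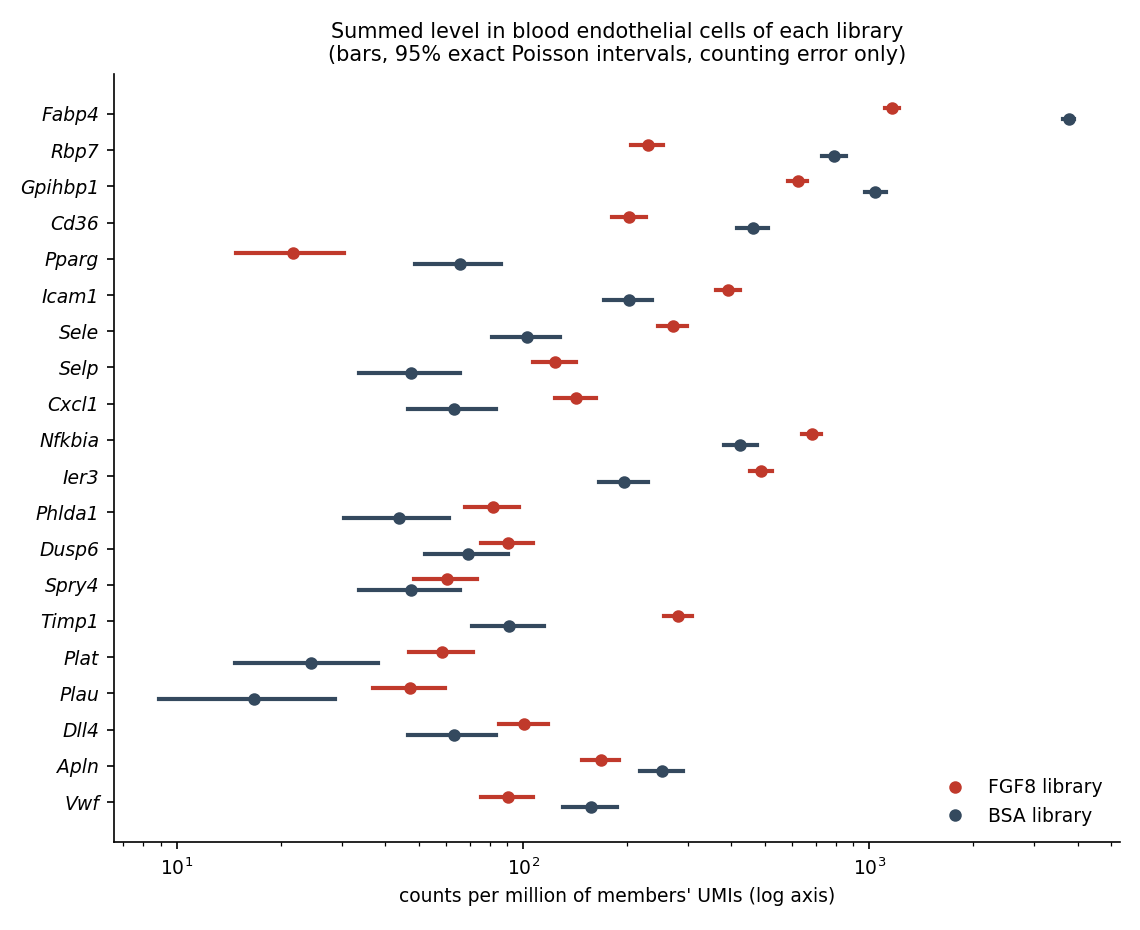
CPM of blood endothelial cells (log axis) are shown for 20 genes in the FGF8 library (red) and the BSA library (blue), with 95% exact Poisson intervals of the counts. The 5 genes at the top are lower in the FGF8 library, such as Fabp4 at 1161 against 3768, and the leukocyte adhesion genes below them are higher, such as Icam1 at 391 against 202.

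Genes for the capture of leukocytes were higher in the FGF8 library. Sele (E-selectin), which slows leukocytes on the vessel wall, stood at 271 CPM in the FGF8 library and 103 CPM in the BSA library, 2.63-fold higher in the FGF8 library (log2 ratio 1.40, 1.05 to 1.76). Selp (P-selectin), stored in the same cells for quick release, was at 124 and 47.6 CPM (1.38, 0.86 to 1.93). Icam1, the ligand of leukocyte integrins, was at 391 and 202 CPM (0.95, 0.70 to 1.22). The order was the same for all 3, but they differed in how evenly it held.

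Sele was near equal in female-called members, at 213 CPM for FGF8 and 176 for BSA (log2 ratio 0.27). In male-called members it was at 275 and 16.0 CPM (4.11), the latter from 12 cells. A single BSA member held 47.5% of that library's Sele, and without the top member of each library the ratio was 1.93. Icam1 was more even, at 1.04 in female-called and 1.20 in male-called members, 0.91 without the mixed-marker members and 1.29 without the top members. Selp had a ratio of 1.23 in female-called members and no UMI in the male-called BSA members. Thinned to 2000 UMIs, Icam1 was found in 39.8% of FGF8 members (30.3 to 49.9) and 19.6% of BSA members (9.82 to 33.1), with C1q-positive cells at 12.4% and 13.8%, and unthinned it was in 62.8% and 48.3% of members. Sele was in 16.5% and 11.8% of members and in 0.188% and 0% of C1q-positive cells, the latter 0 of 289 cells, which allows up to 1.27% of such cells to hold a UMI at this depth by the exact interval. The members' shares (9.92 to 25.1 and 4.44 to 23.9) overlapped. The interval of the Sele level did not reach 0, but it takes UMIs as separate draws and leaves out the spread between cells.

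Of the 28 adhesion and inflammation genes, 27 reached 10 UMIs, 19 of them above 0 (70.4%, against 50% of all genes) and 6 above 1 (22.2%, against 6%), with a median of 0.44. The counts above 0 and above 1 both hold Il1rl1 and Ptgs2, which reached 10 UMIs through the FGF8 library alone. Neither count is therefore read as an excess. No gene of the list was below -1. Of the chemokines, Cxcl1, which draws neutrophils, was at 142 and 63.0 CPM (1.17, but 0.66 without the mixed-marker members), and Cxcl10 at 75.2 and 32.1 CPM (1.23). Cxcl10 rested on few cells: 54.8% of its FGF8 UMIs and 92.0% of its BSA UMIs were in 1 cell each, and its ratio was -0.26 in male-called members. Nfkbia, the inhibitor that NF-κB switches on against itself, was at 682 and 424 CPM (0.68). Nfkb1, a subunit of NF-κB (0.67), and Irf1, an interferon-responsive factor (0.79), had ratios of similar size, and all 3 were above 0 in both sexes. Il1rl1, the receptor of interleukin 33, and Ptgs2, an inducible cyclooxygenase, had 18 and 15 UMIs in FGF8 members but none in BSA members. Thinned, Il1rl1 was in 0.971% of FGF8 members and 3.01% of FGF8 C1q-positive cells, so it is not read as expressed by the members, and without the mixed-marker members Ptgs2 had 3 UMIs. Vcam1 was rare in both, at 15 and 7 UMIs. Without the mixed-marker members, 15 of 25 genes were above 0 and 4 above 1, with a median of 0.31. In mural-marker and Pdgfra-positive cells the same list had medians of 0.84 and 0.87.

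The promoter windows of 4 genes of this list are shown because NF-κB, whose inhibitor Nfkbia was higher, is known to act on such genes. They are the 250 bases before the RefSeq start on GRCm38.p6, 5′ to 3′ on the gene's strand, and capitals mark matches to the 10-base NF-κB motif on either strand, overlapping matches joined. Cxcl1 is at chr5:90890995-90891244, Cxcl2 at chr5:90903649-90903898 and Cxcl10 at chr5:92348890-92349139 (minus strand). Nfkbia is at chr12:55492648-55492897 (minus strand).
Cxcl1: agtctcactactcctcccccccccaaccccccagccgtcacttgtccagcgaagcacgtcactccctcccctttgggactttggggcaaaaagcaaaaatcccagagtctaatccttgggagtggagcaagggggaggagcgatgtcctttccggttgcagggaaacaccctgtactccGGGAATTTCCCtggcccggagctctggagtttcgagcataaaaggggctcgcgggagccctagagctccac
Cxcl2: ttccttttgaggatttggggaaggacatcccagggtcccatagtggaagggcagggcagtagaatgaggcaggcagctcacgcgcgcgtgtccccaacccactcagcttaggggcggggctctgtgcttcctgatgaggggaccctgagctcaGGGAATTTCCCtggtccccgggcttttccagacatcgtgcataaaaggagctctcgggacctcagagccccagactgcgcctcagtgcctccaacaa
Cxcl10: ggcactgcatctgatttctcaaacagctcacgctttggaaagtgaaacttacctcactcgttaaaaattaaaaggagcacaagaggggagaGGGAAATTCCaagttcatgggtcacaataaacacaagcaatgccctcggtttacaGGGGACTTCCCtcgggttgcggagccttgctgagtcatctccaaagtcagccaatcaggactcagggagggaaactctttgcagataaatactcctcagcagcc
Nfkbia: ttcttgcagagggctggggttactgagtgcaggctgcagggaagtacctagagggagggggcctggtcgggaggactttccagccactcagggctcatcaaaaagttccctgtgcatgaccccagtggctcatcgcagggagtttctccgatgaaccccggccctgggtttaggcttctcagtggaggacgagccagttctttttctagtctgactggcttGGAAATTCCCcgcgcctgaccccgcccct

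Cxcl1 and Cxcl2 hold the same run of capitals. Cxcl1 had a log2 ratio of 1.17 from 217 and 49 UMIs, and Cxcl2 one of -0.43 from 19 and 13 UMIs. Without the mixed-marker members they were 0.66 (0.09 to 1.26) and 0.55 (-1.15 to 2.62), intervals that overlap. A window was on hand for 22 of the 28 genes of the list, and 8 of the 22 (36.4%) held the motif, against 2225 of all 27018 genes with a window (8.24%). Of the capillary genes, whose list had a median log2 ratio of -0.24, 3 of 9 held it (33.3%). Within the adhesion list, 5 of 8 genes with a match and 10 of 14 without one had a ratio above 0. Sele, Selp and Icam1 had no match to these letters in their windows. The match is a description of the sequence and was set against no binding data.

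Sele was highest in members with venous but not arterial genes, a grouping that uses Selp, itself higher in the FGF8 library. Members with at least 2 of 5 venous genes (Nr2f2, Ackr1, Selp, Vwf, Aplnr) and fewer than 2 of 5 arterial genes held 352 of the 414 Sele UMIs of the FGF8 library, at 511 CPM in 46 cells. The 16 FGF8 members with the arterial genes alone held none. In the BSA library the venous members had 218 CPM in 17 cells and the arterial members 37.9 CPM in 10 cells. Members with both sets of genes had 69.5 CPM for FGF8 and 4.07 CPM for BSA, and those with neither 158 and 30.9 CPM. Icam1 was at 521 CPM in venous and 292 CPM in arterial FGF8 members, against 124 and 66.3 CPM in BSA members. Members with both programmes had the opposite order, with 325 CPM in 19 FGF8 cells and 399 CPM in 8 BSA cells, and these 8 cells held 98 of the 157 Icam1 UMIs of the BSA library. Fabp4 was lower in the FGF8 library among venous members (1764 against 4839 CPM) and among arterial members (1265 against 2008 CPM). These groups were called without thinning, so deeper cells were called more often, and their median depth ran from 10151.5 to 15872 UMIs with 1 set of genes, was 23779 and 29746.5 UMIs with both and 3336.5 and 2785 UMIs with neither.

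The shares of members with at least 2 of the 5 venous, arterial or tip cell genes had differences whose intervals include 0. After thinning to 2000 UMIs, the venous genes were found in 18.4% of FGF8 members (11.5 to 27.3) and 11.8% of BSA members (4.44 to 23.9). The arterial genes (Gja4, Gja5, Sox17, Hey1, Sema3g) were in 5.83% and 7.84%, and the tip cell genes (Esm1, Apln, Angpt2, Kcne3, Cxcr4) in 4.85% and 7.84%. The intervals of the differences were -6.54 to 17.3, -13.1 to 5.88 and -14.0 to 4.67 percentage points. Unthinned, the venous genes were in 57.5% and 43.1%, the arterial genes in 31.0% and 31.0%, and the tip cell genes in 34.5% and 29.3%. What size of difference could be detected with the 103 and 51 thinned cells was not tested. Arterial and venous genes met in 1 thinned FGF8 member and in no BSA member.

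**Figure D3:**
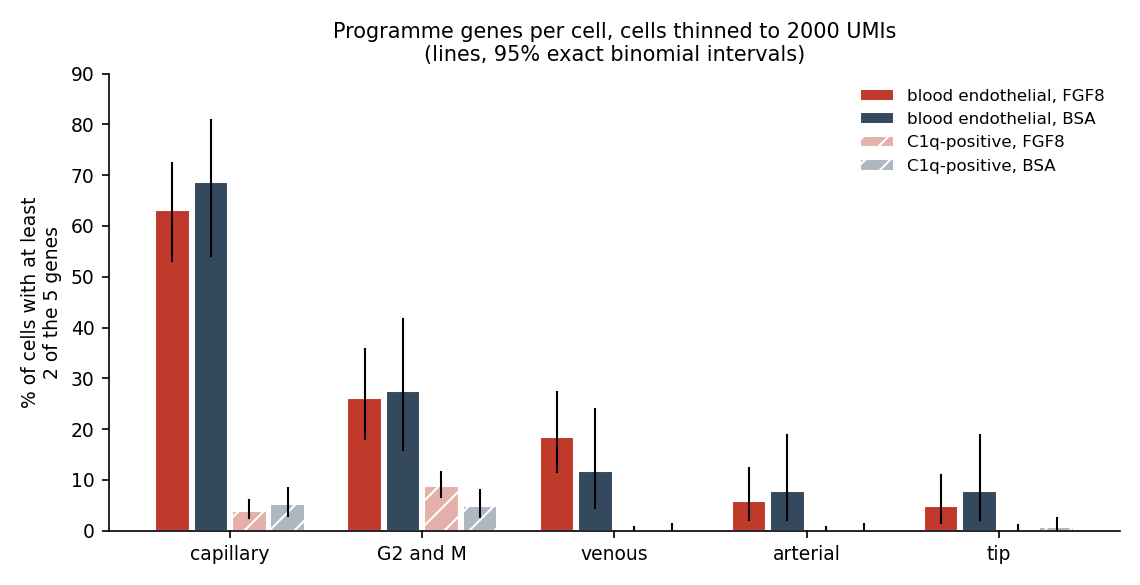
Bars give the percentage of cells, thinned to 2000 UMIs, in which at least 2 of the 5 genes of a programme were found, for blood endothelial cells (full colour) and C1q-positive cells (hatched) of each library, with 95% exact binomial intervals as lines. Capillary genes were in 63.1% of FGF8 and 68.6% of BSA members, and the intervals of both libraries overlap for every programme.

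Among the arterial genes 6 of 18 had a ratio above 0, with a median of -0.18. Hey1, a Notch target, was at 28.1 and 46.3 CPM (-0.72), and Tm4sf1, a tetraspanin-like protein and the most abundant of the list, at 1182 and 846 CPM (0.48). The venous median was 0.11 over 12 genes, but -0.56 in female-called and 1.00 in male-called members, so that no direction can be given. Vwf, the platelet-binding glycoprotein, was lower in the FGF8 library in both sexes (90.2 and 157 CPM, -0.80). Tll1, a protease of the BMP1 family, had 13 UMIs in 7 FGF8 members and 47 UMIs in 3 BSA members (-2.83), and 55.3% of the latter lay in 1 cell. Nr2f2, the factor that sets venous fate, was near even at -0.14.

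Sprouting genes lay on both sides of 0. Over the 20 tip cell genes the median was 0.08, 11 were above 0, none was above 1 and 2 were below -1. In female-called members the median was 0.33, with 15 above 0 and 6 above 1. Male-called members had -0.10, with 7 above 0 and 5 below -1. Dll4, the Notch ligand of tip cells, was at 101 and 63.0 CPM (0.68, 0.20 to 1.17), and above 0 in both sexes. Apln, a secreted peptide of tip cells, was lower, at 168 and 252 CPM (-0.58, -0.86 to -0.31). Unc5b, a guidance receptor, was at 33.3 and 82.3 CPM (-1.30), and Cxcr4, the receptor of Cxcl12, at 15.7 and 47.6 CPM (-1.60), both lower in both sexes. Esm1 was at 75.2 and 130 CPM (-0.79), with 0.10 in female-called members. Col4a1 and Col4a2, the basement membrane collagens and the most abundant genes of the list, were even at 0.05 and -0.06.

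Of 17 VEGF, angiopoietin and apelin genes, 10 were above 0 (58.8%, against 50% of all genes) and 3 above 1 (17.6%, against 6%). The median was 0.11 (-0.18 without the mixed-marker members). These counts include Egr3 and Vegfa, which reached 10 UMIs through the FGF8 library, so neither count is read as an excess. Egr3, a transcription factor that VEGF induces, had 29 UMIs in 19 FGF8 members and 2 UMIs in 2 BSA members (2.88, 0.90 to 5.99). Flt4, a VEGF receptor, was at 29.4 and 14.1 CPM (1.06), and Vegfa, the ligand itself, had 18 and 3 UMIs. Nrp1, a co-receptor, was at 323 and 428 CPM (-0.41), and Ptprb, the phosphatase that restrains Tek, at 333 and 489 CPM (-0.55). Both stood lower in the FGF8 library, while Kdr, used by the rule, was near even (-0.17). Notch genes had a median of -0.05, with Hes1, a Notch target, at -0.39.

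The FGF list held the receptors, their feedback inhibitors, the Ets factors below them and more general growth and stress response genes (Ccnd1, Myc, Ier3, Phlda1 and Fosl1), of which Ccnd1 was the most abundant gene of the list. Of 25 genes, 24 were in the files, 20 reached 10 UMIs and 16 of these were above 0 (80.0%, against 50% of all genes). A ratio above 1 was found in 5 (25.0%, against 6%) and none was below -1, with a median of 0.54 (0.34 without the mixed-marker members, 0.58 in female-called and 0.29 in male-called members). These counts include Fosl1, Etv4, Etv5 and Dusp4, and the count above 0 also Spry2. All of them reached 10 UMIs through the FGF8 library, so neither count is read as an excess. In C1q-positive cells the median was 0.55, in Pdgfra-positive cells 0.33 and in mural-marker cells 0.13, so a value of this size was not found in endothelial cells alone.

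The FGF receptors themselves were even. Fgfr1 was at 57.5 CPM in the FGF8 library and 61.7 CPM in the BSA library (-0.10, -0.62 to 0.44), and Fgfr2 at 76.5 and 69.4 CPM (0.14). Fgfr3 had 7 UMIs and 1 UMI, and Fgfr4 had 1 and none. Ier3, a response gene of growth factors and stress, was at 488 and 195 CPM (1.32, 1.07 to 1.58). Its ratio was 2.14 among female-called members and 0.69 among male-called ones. It was found in 40.8% of thinned FGF8 members (31.2 to 50.9) and 15.7% of BSA members (7.02 to 28.6), while C1q-positive cells held it in 31.8% and 29.1%. Unthinned, 75.2% and 50% of members held it. Unthinned, C1q-positive cells held it in 60.4% and 54.2%. How much of the Ier3 in members was their own transcript was not tested.

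The feedback genes were smaller and their intervals often included 0. Dusp6, the phosphatase that acts on ERK, was at 90.2 and 69.4 CPM (0.38, -0.09 to 0.86), and Spry4 at 60.1 and 47.6 CPM (0.34, -0.23 to 0.93). Spry2 had 22 and 6 UMIs (0.90, -0.45 to 2.49) and Dusp4 had 24 and 6 (1.02, -0.30 to 2.60). Etv4 and Etv5, Ets factors of the pathway, had 18 and 15 UMIs in the FGF8 library and 4 and 2 in the BSA library. Thinned, Etv5 was in 0.971% of FGF8 members and 4.51% of FGF8 C1q-positive cells, and unthinned in 11.5% and 23.3%, while its ratio of 1.93 was the highest of the list. Dusp6 was in 13.6% of FGF8 and 13.7% of BSA members and in 13.2% and 12.1% of C1q-positive cells. Fosl1, an AP-1 factor, had 20 UMIs and 0. Phlda1, an early growth factor gene, was at 81.7 and 43.7 CPM (0.90, 0.35 to 1.49), and Ccnd1, the cyclin of the G1 phase, at 562 and 413 CPM (0.44), though -0.05 in female-called members. Spred1, another inhibitor of the pathway, was lowest, at -0.49.

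Immediate early genes, which many stimuli and also cell dissociation switch on, were higher as a group. Of 18, 16 were above 0 (88.9%, against 50% of all genes), none was above 1 and the median was 0.61. Jun was at 1279 and 839 CPM (0.61) and Atf3 at 261 and 136 CPM (0.94), whereas the heat shock gene Hspa1a was at 1333 and 1459 CPM (-0.13). The median was 1.06 in female-called and 0.29 in male-called members, 0.31 in mural-marker and Pdgfra-positive cells alike, and -0.29 in C1q-positive cells. The enzymatic digestion took 4 h for both libraries, and its part in these values was not tested. Glycolysis and hypoxia genes had a median of 0.25, with 16 of 21 above 0 (76.2%, against 50% of all genes). Among them were Pkm, a pyruvate kinase, at 0.44 and Ero1a, an oxidase of the endoplasmic reticulum, at 1.35.

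Genes that cut or guard the matrix were mostly above 0, but not after thinning. Of 22, 18 reached 10 UMIs, with a median of 0.61. Of these, 15 were above 0 (83.3%, against 50% of all genes) and 6 above 1 (33.3%, against 6%). Both counts hold Mmp3, described below, which was not found in BSA members, so neither is read as an excess. Without the mixed-marker members 12 of 17 were above 0 and the median was 0.41, and thinned to 2000 UMIs it was -0.21, with 7 of 15 genes above 0. Timp1, an inhibitor of metalloproteinases, was at 280 and 91.3 CPM (1.62, 1.25 to 2.00). The mixed-marker members held 62.0% of its FGF8 UMIs and 60.6% of its BSA UMIs, and its ratio was 1.39 without them. Plau and Plat, the plasminogen activators, were at 47.1 and 16.7 CPM (1.49) and 58.2 and 24.4 CPM (1.25). Thinned, Plau was in 6.80% and 5.88% of members and 7.89% and 6.23% of C1q-positive cells, and unthinned in 29.2% and 17.2% against 33.1% and 26.5%. Plat was, thinned, in 8.74% and 5.88% of members and 1.13% and 0.346% of C1q-positive cells. Adamts1, a secreted protease that cuts aggrecan, was at 318 and 172 CPM (0.88), and its ratio was 1.39 among female-called members, 0.67 among male-called members and 1.13 without the mixed-marker members. Timp1 was found in 32.0% of thinned FGF8 and 7.84% of BSA members, but C1q-positive cells showed 20.7% and 4.84%. Timp1 also had a ratio of 2.08 in Pdgfra-positive cells.

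Mmp3 had 73 UMIs in 33 FGF8 members but was not found in BSA members. Against a floor of 3 counts it was at least 12.4-fold higher in the FGF8 library. It was found in 5.83% of thinned FGF8 members and 6.39% of FGF8 C1q-positive cells, so it is not read as expressed by the members.

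The 12 genes with the highest ratios were taken from those with at least 50 UMIs in all. They also had to be found in at least 10% of the members of the higher library, with the same sign in both sexes. Much of their count lay in the mixed-marker members. Spp1 (osteopontin) had 1856 UMIs in 73 FGF8 members and 8 UMIs in 5 BSA members (log2 ratio 6.88). Of the FGF8 UMIs, 94.5% were in the 10 mixed-marker members and 55.8% in 1 cell. Without the mixed-marker members the ratio was 3.52, from 102 and 4 UMIs. Thinned, Spp1 was in 23.3% of FGF8 and 1.96% of BSA members, and in 34.2% and 10.4% of C1q-positive cells. How much of it the members made themselves was not tested.

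The same held for several others of the 12. Mgp, a matrix protein of cartilage and vessel walls, had 95.7% of its 834 FGF8 UMIs in mixed-marker members, and its ratio went from 5.14 to 1.02 without them. Thbs4, a matrix protein of tendon, had 89.1% of its 221 FGF8 UMIs in 1 cell. For Col2a1, the cartilage collagen, the ratio turned from 3.05 to -0.35. As a marker of another lineage, Col2a1 helped to pick these members out, so its turn follows in part from the rule. Fn1 (fibronectin), which endothelial cells also make, was at 346 and 77.1 CPM (2.17) and had a ratio of 0.80 without them. Prg4 (lubricin), of joint surfaces, kept 55 UMIs in 41 FGF8 members and none in the BSA library without them, but was found in 12.6% of thinned FGF8 members and 10.2% of FGF8 C1q-positive cells. Mmp3 above was another of the 12. Cxcl5, Sdc4, Ecrg4 and Tnc completed these genes, at 57, 56, 54 and 61 FGF8 UMIs and ratios of 4.86, 2.51, 2.46 and 1.96. Sun2, a protein of the nuclear envelope, was more evenly spread. Its 57 FGF8 UMIs lay in 34 cells, with no more than 7.02% in any, and its ratio was 1.86 (2.11 without the mixed-marker members).

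Of the 12 lowest by the same rule, Ifit2, an interferon-induced gene, came first (-2.45), but 79.7% of its BSA UMIs were in 1 cell and it was -0.59 without the top members. Zeb2, a factor of mesenchymal and immune cells, had a ratio of -1.70 and of -0.72 without the mixed-marker members. Serpina1b, Kcnc2, Kcnq1, Nuak1, 2610307P16Rik and H2ac4 had from 34 to 50 UMIs in the BSA library and ratios from -1.89 to -1.49. Fabp4, Rbp7, Pparg and Cxcr4 made up the rest of the 12. Fabp4 and Rbp7 were by far the most abundant of the 12.

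Transcripts of other cell types differed between the members of the libraries. The erythroid list stood at 8882 and 3274 CPM, led by Hbb-bs, of which 71.3% of 7240 FGF8 UMIs were in 1 cell. The pericyte and smooth muscle list stood at 131 and 348 CPM, led by Acta2 and Rgs5, with 7 of 8 genes below -1, and with 3 of 4 above 0 without the mixed-marker members. Such markers helped to pick those members out, so the turn follows in part from the rule. The neutrophil list stood at 205 and 3.86 CPM, almost all S100a9 and S100a8, 73.0% of the former in 1 FGF8 cell, and 3 of its 7 genes had no UMI in any member. The chondrocyte list stood at 180 and 25.7 CPM, the fibroblast list at 1499 and 1922 CPM, and the macrophage list at 41.2 and 78.4 CPM. The platelet list stood at 70.6 and 15.4 CPM, with 88.0% of its leading FGF8 transcript Pf4 in 1 cell. Lymphatic (77.1 and 65.6 CPM), mast cell (48.4 and 39.9 CPM), keratinocyte (49.0 and 45.0 CPM) and Schwann cell lists (24.8 and 32.1 CPM) were near even, and Kit, which led the mast cell list, is also found in endothelium. The part of these transcripts in the differences above was not tested beyond leaving the mixed-marker members out.

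**Figure D4:**
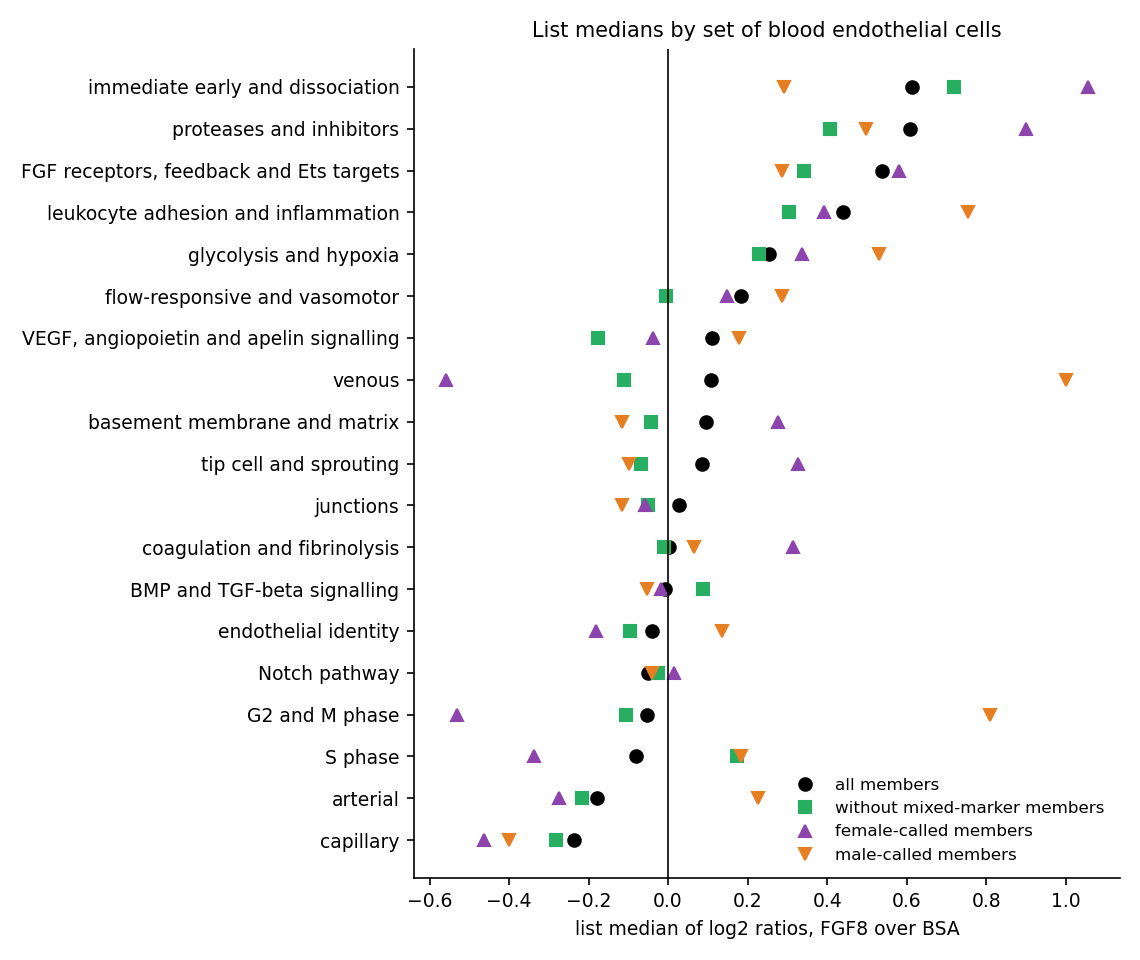
The x axis gives the list median of the log2 ratios, FGF8 over BSA, in all blood endothelial cells (black), without the 18 mixed-marker members (green), and in female-called (purple) and male-called members (orange). The capillary median is below 0 in all 4 sets, the adhesion, FGF, protease, immediate early and glycolysis medians are above 0 in all 4, and the venous and G2 and M medians lie on opposite sides of 0 in the sexes.

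Genes of cell division were near even in the pooled blood endothelial cells and higher in the FGF8 library in 3 of the 4 cell sets set beside them. The 54 genes of the G2 and M phases had a median of -0.05, with 21 above 0, in blood endothelial cells, against 1.22 in Pdgfra-positive cells, 1.27 in mural-marker cells and 0.67 in C1q-positive cells. For the 42 S phase genes the medians were -0.08, 0.59, 0.58 and 0.52. Lymphatic-marker cells, 16 for FGF8 and 53 for BSA, had a G2 and M median of 0.43 and an S phase median of -0.28, the latter below that of the blood endothelial cells. Hmgb2, a chromatin protein of dividing cells, was at 497 and 667 CPM (-0.43), and in Pdgfra-positive cells it had a ratio of 0.87. The share of members with at least 2 of 5 division genes (Mki67, Top2a, Cdk1, Birc5, Ccnb2) was 26.2% in the FGF8 library (18.0 to 35.8) and 27.5% in the BSA library (15.9 to 41.7), against 8.83% and 4.84% of C1q-positive cells. Unthinned, it was 46.9% and 46.6%. The order of the libraries turned with the number of genes asked for, with intervals that overlapped: at least 3 genes were in 12.6% of thinned FGF8 members (6.89 to 20.6) and 21.6% of thinned BSA members (11.3 to 35.3), and at least 1 in 45.6% (35.8 to 55.7) and 35.3% (22.4 to 49.9). Unthinned, at least 1 was in 69.9% (60.6 to 78.2) and 50% (36.6 to 63.4).

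The sexes went apart, however. In female-called members the G2 and M median was -0.53, with 8 of 52 genes above 0, and in male-called members 0.81, with 47 of 52 above 0, the latter against 12 BSA cells. For S phase genes these medians were -0.34 and 0.18, and without the mixed-marker members the pooled value was 0.17. A pooled value near 0 therefore does not show that division was the same in both libraries, and the difference between cell types was not tested.

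**Figure D5:**
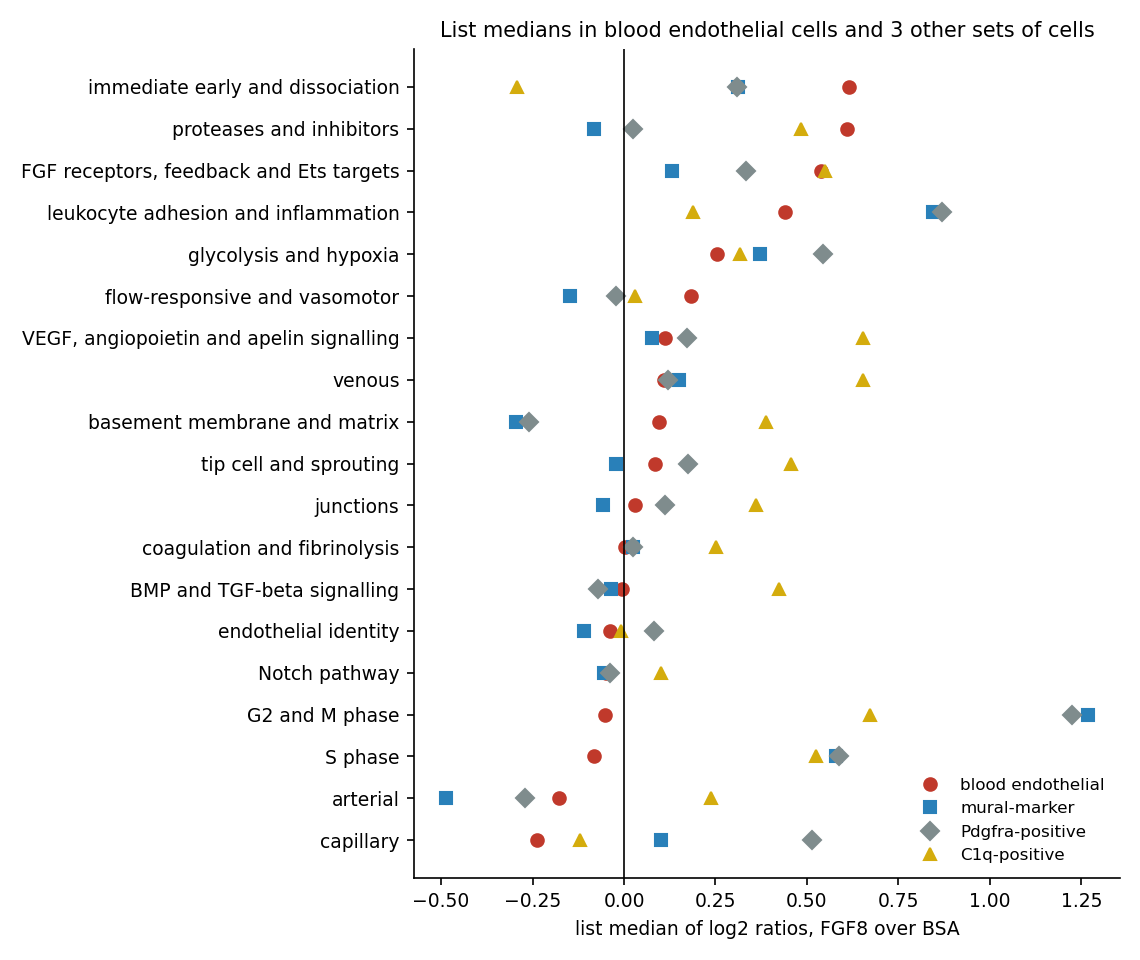
List medians of the log2 ratios, FGF8 over BSA, are given on the x axis for blood endothelial cells (red circles), mural-marker cells (blue squares), Pdgfra-positive cells (grey diamonds) and C1q-positive cells (yellow triangles) of the same libraries. For G2 and M genes the endothelial median is -0.05 and the other 3 sets lie between 0.67 and 1.27, and for capillary genes the endothelial median is the lowest of the 4 sets, at -0.24. Lymphatic-marker cells are not plotted.

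The remaining lists lay near the background. Basement membrane and matrix genes had a median of 0.09 (14 of 22 above 0), with Sparc, the most abundant, at 4728 and 4209 CPM (0.17) and Col18a1, the source of endostatin, at 581 and 399 CPM (0.54). Itga1, a collagen receptor, was at 33.3 and 69.4 CPM (-1.06) and lower in both sexes. BMP and TGF-beta genes had a median of -0.01, with Eng, an endothelial co-receptor, at 450 and 458 CPM. Flow-responsive genes had a median of 0.18 (-0.0046 without the mixed-marker members), with Klf2, the factor that shear stress induces, at 400 and 355 CPM and Cav1, which shapes the caveolae, at 1609 and 1781 CPM. Coagulation genes had a median of 0.0014 over 10 genes, with 5 above 0.

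The genes that carry these results lie on GRCm39, by the GENCODE vM39 annotation, at chr3:10268785-10273737 (Fabp4, minus strand), chr4:149534116-149539437 (Rbp7, minus strand) and chr5:17986432-18094067 (Cd36, minus strand). Sele is at chr1:163867401-163886055, with Selp on the same chromosome at chr1:163942833-163977595, and Icam1 at chr9:20926672-20940113, all on the plus strand. Ier3 is at chr17:36132568-36133815 (plus strand). The counts are of whole genes, from the 3′ ends of transcripts.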

How the data were processed

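Per the labels and the study's methods, the authors made the deposited matrices of counts (UMIs per gene and barcode, 10x 3′ v3.1) with Cell Ranger 9.0.0, on GRCm39; the labels also name mm10 and Seurat. Values were used as deposited, with no normalization. Barcodes with more than 200 and fewer than 7500 genes and under 15% mitochondrial UMIs were kept. No doublet caller was run here and doublets were not removed. UMIs were summed over the members of each library and given as CPM, as log2 ratios with exact conditional 95% intervals, for counting error only. Genes needed 10 UMIs over both libraries. To compare shares, cells were thinned to 2000 UMIs (103 of 113 and 51 of 58 members reach it). The calculations used Python 3.11.15, numpy 2.4.6, scipy 1.17.1, pandas 2.3.3 and matplotlib 3.10.9, and were tested on simulated data.

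Members, gene lists and rules were chosen with earlier results of these data known. Named genes were the 8 rule genes, the 2 most abundant and up to 3 with the largest ratios of each list (at least 30 UMIs), and the 12 highest and lowest of all genes. Other list genes were named for their role, after their values were seen. Alternatives varied the cell filter, marker number, gene minimum, thinning, weighting of cells, sex and other-lineage UMIs. Leaving out the mixed-marker members, or the top member of a gene, was chosen after seeing the data. Mural-marker, Pdgfra-positive and C1q-positive cells were taken by their own markers, with at most 1 rule gene.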

Additional observations from a re-analysis of the deposited data

Results flagged for a closer look

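In the 7 genes flagged here, the log2 ratios of female-called and male-called members lay on opposite sides of 0 with intervals that did not meet. They are not a count over all genes. Cxcl12, for example, had -3.41 in female-called and 1.17 in male-called members without the mixed-marker members. The difference between the sexes itself was not tested, and the male-called BSA members were 12 cells. Sparc, a matrix glycoprotein, had 0.36 in female-called and -0.12 in male-called members. Hspa1a, a heat shock gene, had -0.22 and 0.75. Il6st, the shared receptor of the interleukin 6 family, had -0.70 and 0.71. Col1a2, a fibroblast collagen, had 0.50 and -1.75. The globins differed most, with -3.18 and 1.22 for Hba-a1, -3.23 and 2.06 for Hbb-bs, and -3.86 and 5.04 for Hbb-bt. A single member held 71.3% of the Hbb-bs UMIs of the FGF8 members, and another 51.3% of those of the BSA members.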

How the results depend on the processing

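No paired analysis was possible because each condition was 1 library, so no replicate could be left out either. The sex-wise values rest on few cells, 12 of them male-called in the BSA library. The member shares of both libraries kept within counting error under the 6 alternatives run for them. Of 285 list values under the alternatives, 260 stayed within an interval of the median reported. This interval was taken from the ranked ratios of the genes in a list. It covers the spread between those genes, not counting error, and is not printed. On the other side of 0 from the median reported lay 69 values. Among lists whose interval did not reach 0, the 1 value to change side was the protease median, at -0.21 with members thinned to 2000 UMIs. There the arterial median was 0.11, junctions -0.14 and S phase 0.28, with 9.23% of genes above 1 and 8.18% below -1. Thinned to 5000 UMIs, the capillary median was 0.035 and 6.71% of genes were below -1. In male-called members the medians were 0.13 for identity, 0.23 arterial, 1.00 venous, -0.12 junctions, 0.53 glycolysis, 0.18 S phase and 0.81 G2 and M, with 12.8% of genes above 1. In female-called members they were -0.56 venous, 1.06 immediate early, -0.34 S phase and -0.53 G2 and M, with 9.43% of genes below -1. With every cell weighted alike they were 0.40 venous, 0.92 adhesion, 0.28 BMP and 0.31 S phase, with 12.5% above 1 and 7.70% below -1. The S phase median was 0.078 under the stricter cell filter (G2 and M -0.25), 0.10 with Pdgfra kept, 0.14 without members with other-lineage UMIs and 0.17 without the mixed-marker members. Unthinned, the tip cell share differed by 5.20 percentage points. Causes were not tested.

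Of 1883 values of named genes, 175 lay on the other side of 0 from the value reported, 30 of them for genes whose reported log2 ratio was past 1 or -1. Of these 30, those without members with other-lineage UMIs were Acta2 (2.61), Col2a1 (-0.32), Lyz2 (0.68) and Tagln (0.30). Without the mixed-marker members they were Acta2 (2.75), Col2a1 (-0.35), Lyz2 (0.43), Rgs5 (0.85) and Tagln (0.17). In female-called members they were Hba-a1 (-3.18), Hbb-bs (-3.23), Hbb-bt (-3.86) and Tagln (1.33), and in male-called members Acan (-0.15), Cxcl10 (-0.26) and Lyz2 (0.12). Thinned to 2000 UMIs they were Hba-a1 (-0.38), Ifit2 (0.21), Nuak1 (0.16) and Rgs5 (1.57), and to 5000 UMIs Hba-a1 (-0.37), Hbb-bt (-0.010) and Kcnq1 (0.18). Dcn was at -0.0016 under the stricter filter. With Pdgfra kept Dcn was at -1.39 and Mfap5 at -1.37, and Tagln was at 0.45 with at least 3 rule genes. Cxcl10 was at -0.21 without the deepest 5% of members. Hba-a1 was at -0.11 with cells weighted alike and -0.18 without its top member.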

Other observations

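Without the mixed-marker members, 10368 genes reached 10 UMIs, with a median of -0.03, 5.46% above 1 and 5.27% below -1. The genes below were chosen from these values. Ccl2, a chemokine for monocytes, had 74 UMIs in FGF8 members and 8 in BSA members (log2 ratio 2.06). Gap43, a growth cone protein, had a ratio of 1.67, Serpine2, an inhibitor of thrombin and urokinase, 1.56, and Nr4a2, a nuclear receptor of the immediate early kind, 1.47. Fam107b had 2.05. At the low end stood the interferon-induced genes Ifit2 (-2.67) and Rsad2 (-2.43), then Nuak1 (-2.10), Serpina1b (-2.08), Kcnc2 (-2.05), Rbp7 (-1.89), Fabp4 (-1.60) and Pparg (-1.58). Most BSA UMIs of Ifit2 lay in 1 cell, as given above, so these 2 genes are not read as an interferon response. Rbp7, Fabp4 and Pparg thus stood among the lowest with and without these members.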
